A study of Mus musculus with 6 samples.

Results

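MHC class I presentation was followed here through 10 genes, taken by symbol from the 35122 genes of the count table: the heavy chains H2-K1, H2-D1 and H2-T23, the light chain B2m, the peptide transporter genes Tap1 and Tap2, the loading factor Tapbp, the immunoproteasome subunits Psmb8 and Psmb9, and the transactivator Nlrc5. All 10 were found, and all 10 had enough counts to be tested. RNA came from adipocytes that floated up after epididymal fat was digested with collagenase, from male C57BL/6 mice on chow, labelled 10 to 11 months of age (the study's text gives an older age), with 3 control mice and 3 aPU.1KO mice and 1 library per mouse. Both groups were PU.1 fl/fl, with a single exon of Spi1, the gene of the transcription factor PU.1, between loxP sites. The aPU.1KO mice also carried Cre recombinase under the adiponectin (Adipoq) promoter and enhancer, while the controls were littermates without Cre. The fraction is enriched by flotation and can hold other cells, and in bulk RNA fewer cells of a type cannot be told apart from less RNA per cell.

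Class I molecules show fragments of a cell's own proteins to CD8 T cells and natural killer cells. Proteasomes cut the proteins, the TAP transporter moves the peptides into the endoplasmic reticulum, tapasin (Tapbp) and chaperones load them onto a heavy chain paired with beta-2-microglobulin, and the complex goes to the cell surface. Nearly all nucleated cells carry class I, while class II is mostly kept to professional antigen-presenting cells such as macrophages. Interferon gamma raises most genes of the pathway, and NLRC5 is the transactivator of class I genes as CIITA is of class II genes.

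Total counts lay between 20550252 and 24310144 in 5 libraries and were 69283842 in control mouse 1. Spi1, the targeted gene, was counted at 24.3, 6.35 and 26.7 CPM (counts scaled to library size, with TMM factors) in control mice 1, 2 and 3 and at 3.20, 1.22 and 4.17 CPM in aPU.1KO mice 1, 2 and 3. Its log2 fold change (aPU.1KO over control throughout) was -2.75 with an adjusted p of 0.0788 by edgeR's quasi-likelihood test. The counts are per gene, so reads of the undeleted exons of Spi1 are included. Of the controls, mouse 2 lay nearest to the aPU.1KO mice.

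None of the 10 class I genes passed an adjusted p of 0.05 (0 of 10, against 0.18% of all 13925 genes tested called lower and 0.0575% called higher by edgeR's quasi-likelihood test). At an unadjusted p under 0.05, 1 of 10 was lower, H2-T23, and none was higher, where 13.7% of all genes were lower and 11.9% higher. DESeq2 called 1 of 10 lower at an adjusted p under 0.05, again H2-T23, against 8.73% of all genes called lower and 4.69% higher, and limma-voom called 0 in either direction at an adjusted p, against 0.244% lower and 0.0862% higher. At an unadjusted p limma-voom put 1 of 10 lower, against 14.5% of all genes, and 0 higher, against 12.3%. DESeq2 at an unadjusted p put 3 of 10 lower (14.9% of all genes) and 0 higher (11.4%), and edgeR with no filter on low counts put 3 lower (11.9% of its genes) and 0 higher (8.12%). The estimated log2 fold change was below 0 for 9 of the 10, as it was for 48% of all genes, with a median of -0.32 over the 10 and 0.01 over all genes. Without control mouse 2 the median over the 10 was -0.49. In no gene of the 10 were the 2 groups of mice separate (0 of 10, where 15.5% of all genes lay lower and 16.7% higher in the aPU.1KO mice with no overlap between groups). For 7 of the 10 the 95% interval of the log2 fold change ended above -1, so that a fall by a factor of 2 lay outside it. The exceptions were H2-K1, H2-T23 and Psmb8.

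**Figure D1:**
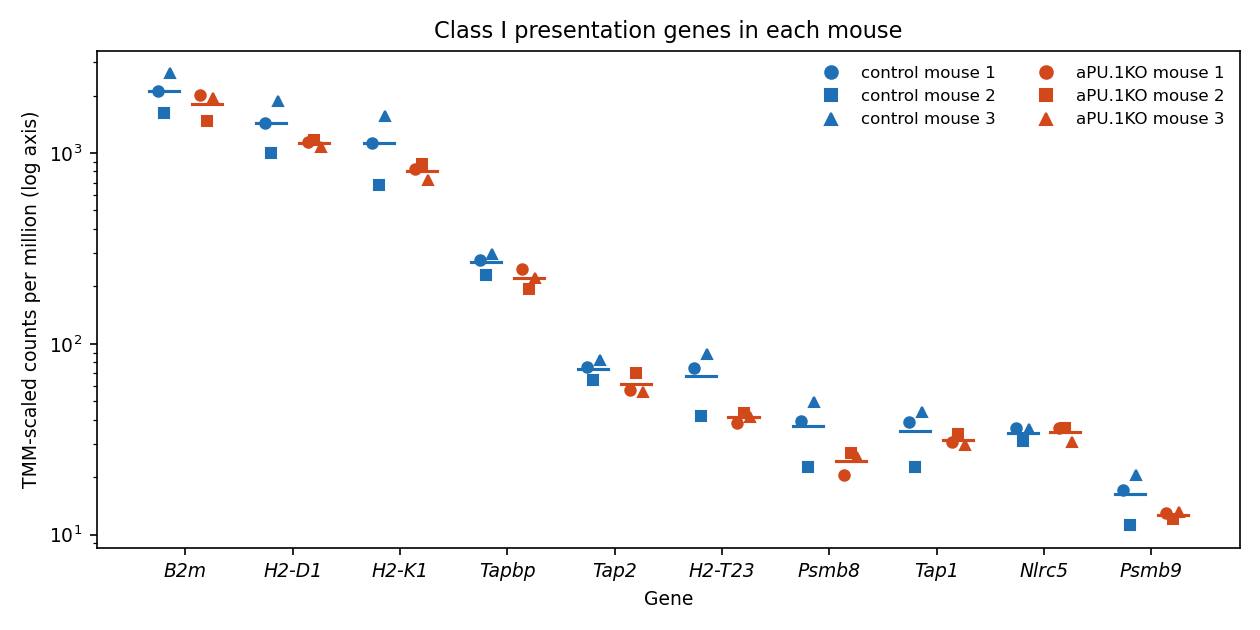
TMM-scaled CPM of the 10 genes on a log axis, with 1 point per mouse (blue control, orange aPU.1KO, shape for the mouse number) and a bar at each group's mean of 3. In each gene the points of the groups overlap, and the square of control mouse 2 lies below the other blue points, as with H2-K1 at 683 CPM against 1126.5 and 1571 CPM.

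H2-K1 and H2-D1 encode the classical heavy chains of C57BL/6 mice, which bind peptides and face CD8 T cells. H2-K1 (ENSMUSG00000061232; chromosome 17, 33996017 to 34000347, minus strand, GRCm38) was counted at 1126.5, 683 and 1571 CPM in control mice 1, 2 and 3 and at 826, 876 and 724 CPM in aPU.1KO mice 1, 2 and 3. The lowest value of all 6 mice was that of a control, mouse 2, and the other controls lay above every aPU.1KO mouse. Its log2 fold change was -0.48 ± 0.28 (SE; 95% interval -1.15 to 0.19, adjusted p = 0.331 by edgeR). H2-D1 (ENSMUSG00000073411; chromosome 17, 35262730 to 35267499, plus strand, GRCm38) was at 1439, 997 and 1880.5 CPM in the controls and at 1135, 1170.5 and 1079 CPM in the aPU.1KO mice. The pattern over the mice was that of H2-K1, and the log2 fold change was -0.35 ± 0.22 (SE; 95% interval -0.88 to 0.18, adjusted p = 0.361 by edgeR). The spread between controls was far wider than between aPU.1KO mice in both genes: the SD of H2-D1 was 442 CPM in the controls and 46.0 CPM in the aPU.1KO mice (n = 3 each).

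The stretches before the RefSeq start sites of these genes are shown because they carry the class I regulatory elements that textbooks describe. A link between these elements and the values over the mice was not tested. Of the 10 genes, 8 had a promoter entry in the RefSeq table (GRCm38.p6). Tap2 and Nlrc5 are named only. The 250 bases before the start site were searched on both strands for an interferon-response core, AANNGAAA, for an NF-kB site of 10 letters, for an X2 box, TGACGC, for CCAAT, for a PU box, GAGGAA, and for a composite Ets and IRF element, which is a special case of the interferon core. In H2-K1 the capitals mark, from left to right, the NF-kB site, the interferon core (on the other strand) and the X2 box, in chr17:34000348-34000597 on the minus strand.
H2-K1: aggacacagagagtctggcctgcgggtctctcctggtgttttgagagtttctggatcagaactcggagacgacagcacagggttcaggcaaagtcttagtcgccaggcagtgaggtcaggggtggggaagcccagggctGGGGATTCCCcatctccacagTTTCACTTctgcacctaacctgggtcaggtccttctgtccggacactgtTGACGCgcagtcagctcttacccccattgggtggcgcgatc
In H2-D1 the NF-kB site and the interferon core lay in chr17:35262923-35262951 on the plus strand, and the same stretch of H2-K1 in chr17:34000430-34000458 on the minus strand. Both were 29 bases long.
H2-K1: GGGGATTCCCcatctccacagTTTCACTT
H2-D1: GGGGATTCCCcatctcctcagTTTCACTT
Counted from 1 at the first base of the H2-K1 stretch, they differed by A18T, which lies between the elements. The NF-kB site began 21 bases before the interferon core and the core 49 bases before the X2 box in both genes. The H2-D1 stretch lies before the RefSeq start site and within the wider bounds of the GENCODE gene.

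B2m encodes beta-2-microglobulin, the light chain that class I heavy chains pair with in the endoplasmic reticulum. B2m (ENSMUSG00000060802; chromosome 2, 122147686 to 122153083, plus strand, GRCm38) was counted at 2124, 1628 and 2614 CPM in the controls and at 2007, 1469 and 1939 CPM in the aPU.1KO mice. Control mouse 3 was highest and aPU.1KO mouse 2 lowest, with control mouse 2 second lowest. The log2 fold change was -0.23 ± 0.21 (SE; 95% interval -0.73 to 0.27, adjusted p = 0.521 by edgeR). Its promoter lies on another chromosome than those of the heavy chains, and held the interferon core and the NF-kB site next to each other in the reverse order, shown in capitals in chr2:122147437-122147686 on the plus strand.
B2m: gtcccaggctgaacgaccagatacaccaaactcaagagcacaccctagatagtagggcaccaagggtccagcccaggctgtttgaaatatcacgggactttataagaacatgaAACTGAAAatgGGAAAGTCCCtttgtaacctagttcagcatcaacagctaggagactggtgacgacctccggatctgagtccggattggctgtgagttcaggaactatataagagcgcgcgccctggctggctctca
The interferon core was found before 4 of 8 genes (H2-K1, H2-D1, H2-T23 and B2m) and in 21.3% of the 32851 promoter windows of the table. The NF-kB site was found before 3 of 8 (H2-K1, H2-D1 and B2m) and in 4.11% of all windows, the X2 box before 2 of 8 (H2-K1 and H2-D1) and in 6.12%, and CCAAT before 7 of 8, all but Psmb8, and in 33.8%. The matches before Tap1 and Psmb9 are 1 shared site, since their windows overlap. The PU box and the composite element were found before 0 of 8, and in 23.3% and 2.3% of all windows. A match is a run of letters and not a bound site, and no match says only that these letters are not in these 250 bases.

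H2-T23 encodes Qa-1, a non-classical heavy chain that presents leader peptides of other class I chains to natural killer cells. H2-T23 (ENSMUSG00000067212; chromosome 17, 36029773 to 36032855, minus strand, GRCm38) had the lowest log2 fold change of the 10. It was counted at 74.3, 41.9 and 88.0 CPM in control mice 1, 2 and 3 and at 38.3, 43.7 and 41.5 CPM in aPU.1KO mice 1, 2 and 3. Control mouse 2 lay within the aPU.1KO mice, and control mice 1 and 3 lay above all of them. The log2 fold change was -0.73 ± 0.25 (SE; 95% interval -1.33 to -0.13), with a p of 0.0241 and an adjusted p of 0.137 by edgeR. DESeq2 gave an adjusted p of 0.0438. Without control mouse 2 the log2 fold change of H2-T23 was -0.99 and its adjusted p 0.00704 by edgeR, while without control mouse 1 they were -0.68 and 0.415 and without control mouse 3 they were -0.51 and 0.329.

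Class I heavy chain genes are near copies of each other, so that reads can be shared between them. The principal transcript of H2-D1 was 90.6% identical to H2-K1 over 1404 bp, and that of H2-K1 was 88.4% identical to H2-D1 over 1515 bp. The closest copy of H2-T23 was the pseudogene H2-T-ps, with an identity of 95.6% over 1068 bp but only 57 counts in all 6 libraries. A sum over heavy chain genes does not depend on how Salmon split reads among them. The sum over 21 heavy chain genes, of which H2-D1 took 48.5% and H2-K1 37.1% of the counts, was 3015, 1959 and 4023 CPM in the controls and 2255, 2407 and 2077 CPM in the aPU.1KO mice. The summed counts again overlapped between the groups, with a log2 fold change of -0.42 ± 0.26 (SE; adjusted p = 0.346 by edgeR's quasi-likelihood test). It was -0.66 without control mouse 2 (adjusted p = 0.0743 by edgeR) and -0.15 without control mouse 3 (adjusted p = 0.741).

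Of the other class I and class I-like heavy chains, 21 of 25 symbols were in the table and 11 were tested. None was called at an adjusted p under 0.05 by edgeR (0 of 11), and 2 were lower at an unadjusted p under 0.05, which DESeq2 also called at an adjusted p under 0.05. Over all genes these shares were 0.18%, 13.7% and 8.73%, so that 2 of 11 lay near the background. Both belong to the Q region, which encodes Qa-2 molecules. H2-Q6 was at 55.1, 23.3 and 80.5 CPM in the controls and at 20.5, 28.6 and 18.0 CPM in the aPU.1KO mice, a log2 fold change of -1.24 ± 0.43 (SE; edgeR adjusted p = 0.135). H2-Q7 was at 40.1, 20.2 and 55.6 CPM and at 17, 23.1 and 16.0 CPM, with -1.05 ± 0.35 (SE; edgeR adjusted p = 0.131). As in H2-K1, only control mice 1 and 3 stood above the aPU.1KO mice. Without control mouse 2 edgeR called 3 of the 11 lower at an adjusted p under 0.05, against 6.93% of all genes. These were H2-Q4, H2-Q6 and H2-Q7. H2-Q7 was 94.1% identical to H2-Q6 over 1040 bp and 96.4% to H2-Q5 over 1006 bp, so their single values are uncertain. H2-Q4, H2-M3, H2-Q5, H2-T24 and H2-T10 had log2 fold changes of -0.68, -0.61, -0.49, -0.44 and -0.39. H2-T22, whose closest copy is H2-T10, had -0.07. The class I-like genes Cd1d1, which presents lipids to natural killer T cells, and Mr1, which presents vitamin metabolites, had estimates above 0, of 0.26 (adjusted p = 0.204 by edgeR) and 0.21 (adjusted p = 0.335). H2-Q10 had 0.96, with 34.7 CPM in aPU.1KO mouse 2 and 7.40 to 10.5 CPM in the other 5 mice.

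Tap1 and Tap2 encode the subunits of the peptide transporter, and Tapbp encodes tapasin, which holds the empty heavy chain at that transporter. Tap1 (ENSMUSG00000037321; chromosome 17, 34187553 to 34197225, plus strand, GRCm38) was counted at 39.0, 22.6 and 43.7 CPM in the controls and at 30.4, 33.8 and 29.5 CPM in the aPU.1KO mice, which all lay between control mouse 2 and the other controls. Tap2 (ENSMUSG00000024339; chromosome 17, 34203527 to 34216321, plus strand) was at 75.2, 64.6 and 82.2 CPM and at 57.6, 70.0 and 56.1 CPM. Tapbp (ENSMUSG00000024308; chromosome 17, 33915899 to 33929292, plus strand) was at 276, 231 and 297 CPM and at 245, 193 and 221 CPM. Control mouse 3 was the highest of the 6 in each of these genes, and the groups overlapped in each. The log2 fold changes were -0.17 for Tap1 (95% interval -0.72 to 0.38), -0.27 for Tap2 (-0.57 to 0.02) and -0.28 for Tapbp (-0.60 to 0.03), with edgeR adjusted p-values of 0.674, 0.223 and 0.227. Exons of Tapbp overlap those of Zbtb22 on the same strand over 149 bp, and those of Tap2 overlap Gm15821 on the other strand over 533 bp.

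The other loading factors and chaperones of the endoplasmic reticulum were tested as a list of 8 genes, of which 0 passed an adjusted p of 0.05 by edgeR or DESeq2 and 1 was lower at an unadjusted p under 0.05, about the share of all genes, 13.7%. That gene was Pdia3, which encodes the disulfide isomerase ERp57 of the loading complex, at 299, 256 and 289 CPM in the controls and at 245, 241 and 244 CPM in the aPU.1KO mice. Its log2 fold change was -0.21 ± 0.09 (SE; adjusted p = 0.19 by edgeR), and the groups did not overlap. Erap1, the aminopeptidase that trims peptides to length, and Sec61a1, a translocon subunit, also had groups that did not overlap, as 15.5% of all genes did in this direction, with log2 fold changes of -0.16 (adjusted p = 0.212 by edgeR) and -0.11 (adjusted p = 0.35). Calreticulin (Calr) had -0.22, Hspa5 -0.09 and calnexin (Canx) -0.04. Lnpep had 0.10 and Tapbpl, a relative of tapasin, 0.01. The median log2 fold change of the list was -0.10.

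Psmb8 and Psmb9 encode catalytic subunits that replace Psmb5 and Psmb6 in the immunoproteasome, as Psmb10 replaces Psmb7. Psmb8 (ENSMUSG00000024338; chromosome 17, 34197721 to 34201454, plus strand, GRCm38) was counted at 39.6, 22.7 and 49.4 CPM in control mice 1, 2 and 3 and at 20.6, 26.8 and 25.5 CPM in aPU.1KO mice 1, 2 and 3. Its log2 fold change was -0.62 ± 0.27 (SE; 95% interval -1.27 to 0.03, adjusted p = 0.214 by edgeR). Control mouse 2 lay among the aPU.1KO mice, and without it the log2 fold change was -0.88 and the adjusted p 0.0257 by edgeR, while without control mouse 3 they were -0.37 and 0.482. Psmb9 (ENSMUSG00000096727; chromosome 17, 34181987 to 34187764, minus strand) was at 17.2, 11.2 and 20.5 CPM and at 13.1, 12.1 and 13.1 CPM, and control mouse 2 was the lowest of the 6. The log2 fold change was -0.36 ± 0.21 (SE; 95% interval -0.87 to 0.15, adjusted p = 0.338 by edgeR). Psmb9 and Tap1 point away from each other, with 226 bases between their RefSeq start sites and 225 of the 250 bases of their promoter windows in common, and their exons overlap on opposite strands over 212 bp. Whether strand was used in counting is not given in the sources used here, so reads of such overlaps are uncertain. Psmb10, which was not one of the 10 genes, was at 45.6, 31.9 and 52.8 CPM and at 29.7, 30.6 and 35.4 CPM, with a log2 fold change of -0.45 ± 0.19 (SE; unadjusted p = 0.0477, adjusted p = 0.19 by edgeR). Without control mouse 2 the log2 fold change of Psmb10 was -0.63 and its adjusted p 0.0319 by edgeR.

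The constitutive core of the proteasome pointed the other way. All 14 core genes had estimates above 0, where 48% of all genes were below 0, with a median log2 fold change of 0.18. Without control mouse 2 the median was 0.12 and Psmb5 had -0.07. None passed an adjusted p of 0.05 by edgeR (0 of 14), 3 were higher at an unadjusted p under 0.05 (11.9% of all genes were), and DESeq2 called 1 at an adjusted p under 0.05 (4.69% of all genes). In 7 of the 14 the groups did not overlap, with the aPU.1KO mice above, as in 16.7% of all genes. Psma6 had the largest estimate, 0.32 ± 0.08 (SE; edgeR adjusted p = 0.092), from 134, 125 and 135 CPM in the controls to 166, 175 and 150 CPM in the aPU.1KO mice. Psmb1, Psma3 and Psma5 had 0.24, 0.21 and 0.19, and Psmb5, Psmb6 and Psmb7 had 0.02, 0.16 and 0.19. Of the other interferon-induced proteasome genes, the assembly factor Pomp had 0.18 and the activator subunits Psme1 and Psme2 had 0.12 and -0.10. Without control mouse 2 Pomp, Psme1 and Psme2 had 0.11, 0.03 and -0.22.

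The replacement of subunits was compared as a ratio of counts within each library, which needs no scaling. Psmb8 to Psmb5 was 0.619, 0.402 and 0.712 in the controls and 0.326, 0.384 and 0.433 in the aPU.1KO mice, a difference of -0.57 in mean log2 ratio (exact permutation test, two-sided p = 0.2). For Psmb9 to Psmb6 the difference was -0.47 (exact permutation p = 0.3), and for Psmb10 to Psmb7 it was -0.60 (exact permutation p = 0.2). Adjusted over 4 ratios these p-values were all 0.4, and with 3 mice against 3 no two-sided p below 0.1 can be had. In each of the 3 pairs control mouse 2 had the lowest ratio of the controls and overlapped the aPU.1KO mice. With 1 mouse left out the differences ran from -0.81 to -0.40 for Psmb8 to Psmb5 and from -0.65 to -0.31 for Psmb9 to Psmb6. For Psmb10 to Psmb7 they ran from -0.82 to -0.45. The ratio of B2m to the summed heavy chains was 0.705, 0.831 and 0.650 in the controls and 0.890, 0.610 and 0.934 in the aPU.1KO mice, a difference of 0.14 (exact permutation p = 0.6). That difference ranged from 0.02 without aPU.1KO mouse 3 to 0.33 without aPU.1KO mouse 2, and was 0.06 without aPU.1KO mouse 1 or control mouse 3 and 0.24 without control mouse 2.

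Nlrc5 (ENSMUSG00000074151; chromosome 8, 94434356 to 94527272, plus strand, GRCm38) was the most even of the 10. It was counted at 36.1, 30.9 and 35.9 CPM in the controls and at 36.4, 36.3 and 30.5 CPM in the aPU.1KO mice. The groups had nearly the same mean, 34.3 ± 2.91 and 34.4 ± 3.40 CPM (SD, n = 3 each). The 95% interval of its log2 fold change ran from -0.26 to 0.26, with an adjusted p of 0.992 by edgeR. Its sign changed with the scaling, as with RLE factors, which gave -0.012. Among 18 genes of class I transcription and interferon gamma signaling, 17 were tested, 0 passed an adjusted p of 0.05 by edgeR and 2 were lower at an unadjusted p under 0.05 (13.7% of all genes were), with a median log2 fold change of -0.02. Those were Nfya, a subunit of the CCAAT-binding factor NF-Y, with -0.46 ± 0.15 (SE; edgeR adjusted p = 0.117), and the kinase Jak1, with -0.26 ± 0.11 (SE; edgeR adjusted p = 0.187). DESeq2 called 1 of the 17, Nfya, where it called 8.73% of all genes lower. Irf1, an activator of class I genes, was at 67.0, 67.3 and 66.7 CPM in the controls and at 157, 410 and 43.9 CPM in the aPU.1KO mice. Its log2 fold change was 1.60 ± 0.69 (SE; edgeR adjusted p = 0.201), and the aPU.1KO mice lay on both sides of the controls. Ifng itself had at most 6 counts in a library and was not tested.

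**Figure D2:**
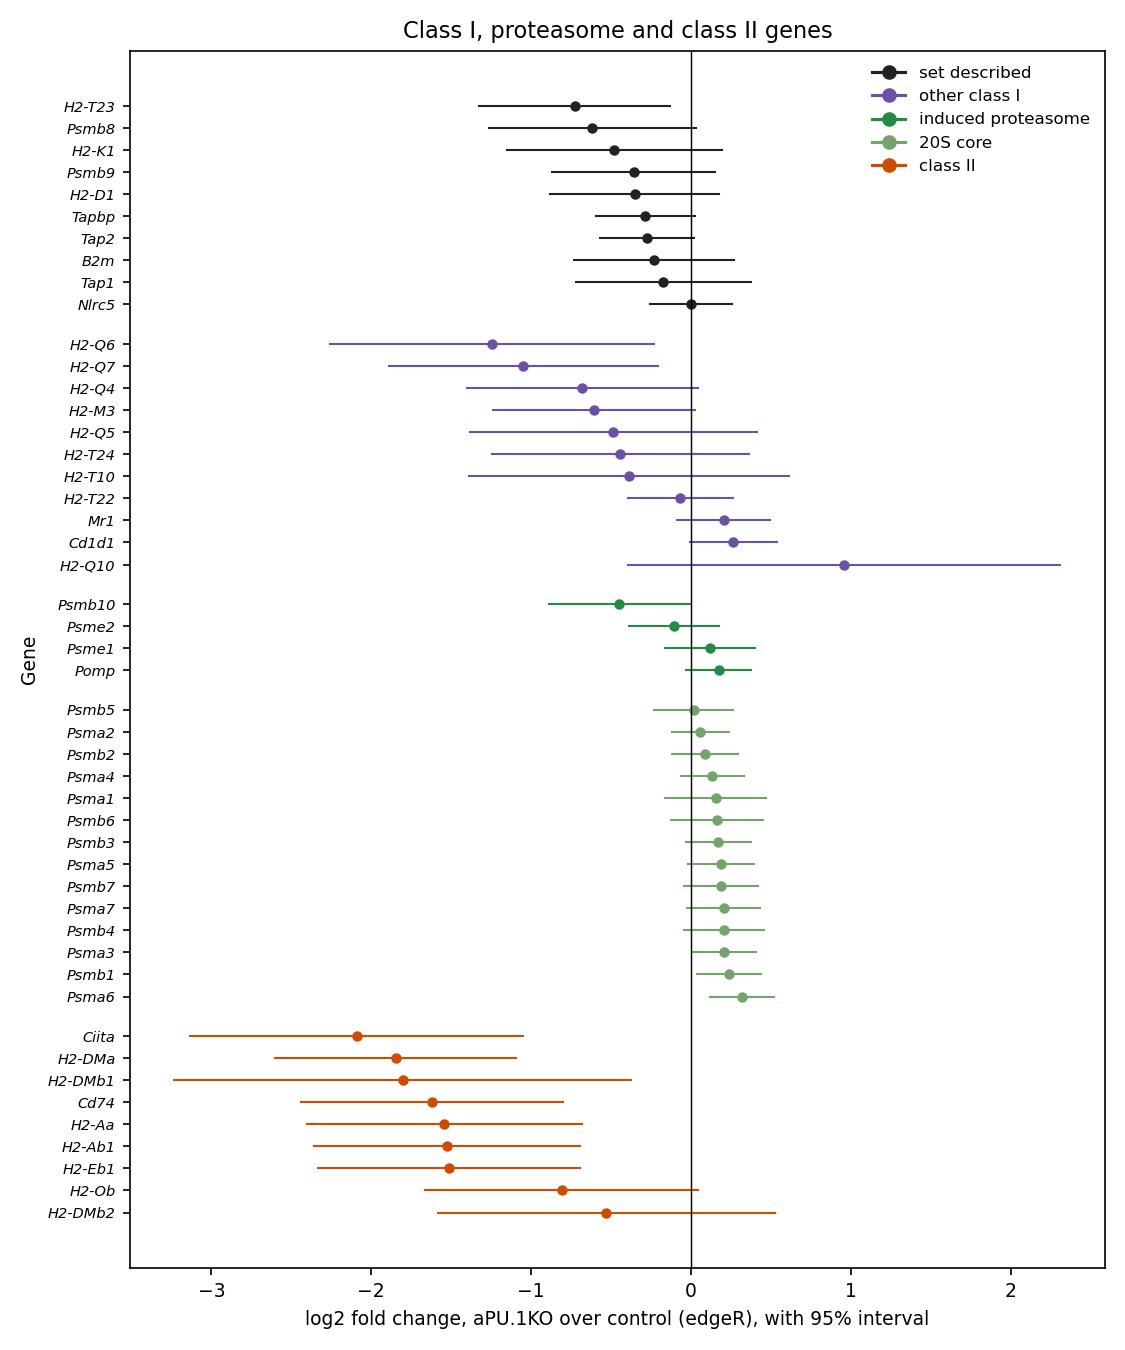
Log2 fold changes by edgeR (points) with 95% intervals (lines), for the 10 genes described, other class I heavy chains, proteasome genes induced by interferon, the proteasome core and class II genes. The 10 lie between -0.73 and 0.00, the core genes between 0.02 and 0.32, and the class II genes between -2.09 and -0.53.

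Class II genes, which the same table lists beside the class I genes, had larger estimates. Of 9 class II genes tested, 7 had a lower level with an unadjusted p below 0.05 (13.7% of all genes had) and 0 passed an adjusted p of 0.05 by edgeR, where the smallest was 0.0722. DESeq2 called 6 of them (8.73% of all genes), and the median log2 fold change was -1.54. Ciita, the class II transactivator, was at 10.9, 4.03 and 11.9 CPM in the controls and at 2.69, 1.58 and 2.04 CPM in the aPU.1KO mice, with a log2 fold change of -2.09 ± 0.44 (SE; edgeR adjusted p = 0.0768). Cd74, the invariant chain, was at 322, 139 and 323 CPM and at 77.4, 69.0 and 109 CPM, with -1.62 ± 0.35 (SE; edgeR adjusted p = 0.0775). H2-DMa and H2-Eb1 had -1.85 and -1.51. The groups did not overlap in 8 of the 9 class II genes, with the aPU.1KO mice below, as in 15.5% of all genes. For the class I genes this number was 0 of 10 with all mice. Without control mouse 2 it was 9 of 10, against 24.1% of all genes. The class II number without control mouse 2 is not given here, and the difference between the classes was not tested.

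The classes were also set side by side within libraries in 2 ratios, which were chosen after their genes' values were seen and are a description with no test. H2-K1 to Cd74 was 3.50, 4.90 and 4.86 in the controls and 10.7, 12.7 and 6.65 in the aPU.1KO mice, a difference of 1.14 in mean log2 ratio. Nlrc5 to Ciita was 3.32, 7.68 and 3.02 in the controls and 13.5, 22.9 and 15.0 in the aPU.1KO mice, a difference of 1.97. The groups did not overlap in either ratio, control mouse 2 included.

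**Figure D3:**
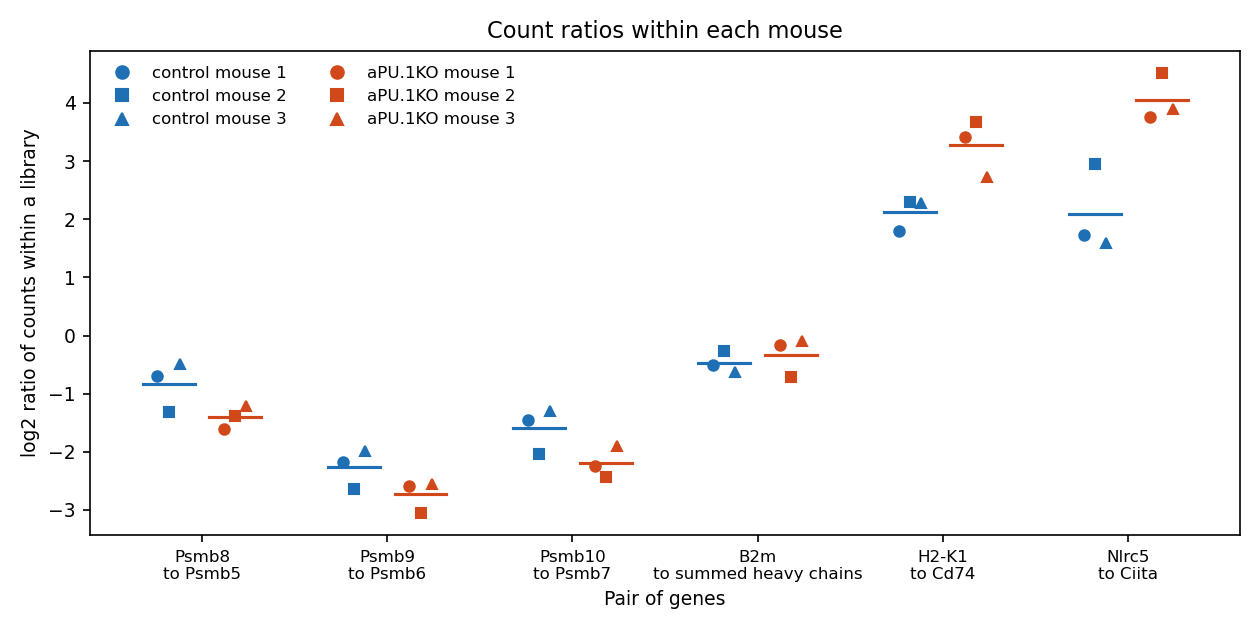
Log2 ratios of the counts of gene pairs within each library, with 1 point per mouse and a bar at the mean of 3. The groups overlap in the 3 proteasome pairs and in B2m to the summed heavy chains, and are separate in H2-K1 to Cd74 and Nlrc5 to Ciita, with mean differences of 1.14 and 1.97.

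In all 10 genes control mouse 2 lay below both other controls, as it did in 43.7% of all genes tested, and in all 10 it was also not above the highest aPU.1KO mouse, as in 33.4%. In 4 genes (H2-K1, H2-D1, Tap1 and Psmb9) control mouse 2 was the lowest of the 6 mice, and in 9, all but Nlrc5, control mouse 3 was the highest. Without control mouse 2 edgeR called 2 of the 10 lower at an adjusted p under 0.05, H2-T23 and Psmb8, against 6.93% of all genes called lower and 1.41% higher, and at an unadjusted p below 0.05 it put 8 of the 10 lower, against 15.1% of all genes, and 0 higher, against 11%. Then 9 of the 10 had the aPU.1KO mice below both remaining controls with no overlap, against 24.1% of all genes, and 0 had them above, against 24.8%. Without control mouse 1 the number below with no overlap was 0, and without control mouse 3 it was also 0. Control mouse 2 was the lowest control in all 10 genes, so leaving it out raises each control mean. The log2 fold changes of H2-K1, H2-D1, B2m, Psmb9 and Tap1 were -0.75, -0.57, -0.40, -0.57 and -0.42 without control mouse 2. Without control mouse 3 they were -0.17, -0.12, -0.06, -0.17 and 0.01. Genes of 1 pathway share libraries and are not independent of each other.

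**Figure D4:**
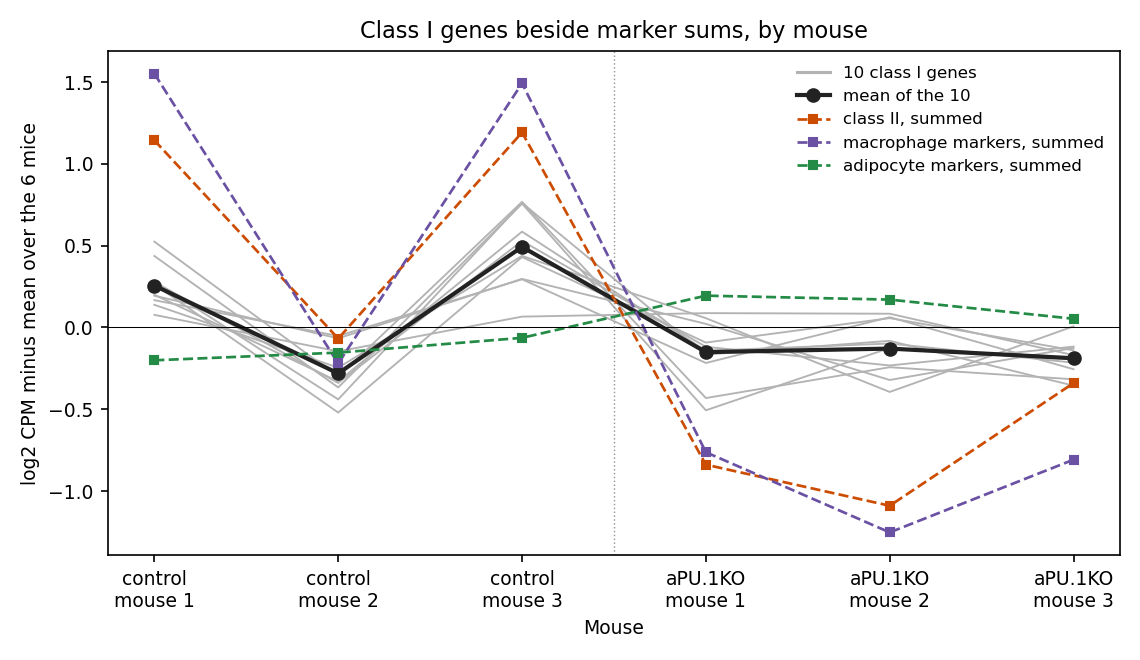
Log2 CPM of each of the 10 genes minus its mean over the 6 mice (grey lines), their mean (black), and the summed CPM of class II genes, macrophage markers and adipocyte markers on the same scale (dashed). The black line is at 0.26, -0.28 and 0.49 in control mice 1, 2 and 3 and at -0.15, -0.13 and -0.19 in aPU.1KO mice 1, 2 and 3.

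The summed markers of macrophages, progenitors and fibroblasts, dendritic cells and neutrophils, and lymphocytes were each lowest, among the controls, in mouse 2, as the class I genes were, while those of endothelial and mesothelial cells were highest there. The counts that follow compare with 13.7% of all genes lower and 11.9% higher at an unadjusted p by edgeR, 0.18% and 0.0575% at an adjusted p, and 8.73% and 4.69% at an adjusted p by DESeq2. The summed CPM of 18 macrophage markers was 2104, 616 and 2020 in control mice 1, 2 and 3 and between 301 and 423 in the aPU.1KO mice. Of the 18, 16 had a lower level with an unadjusted p below 0.05 and 1, Mrc1, at an adjusted p under 0.05 by edgeR (log2 fold change -1.70, adjusted p = 0.0389), with a median of -2.28, and DESeq2 called 16 at an adjusted p. The other 2, Cd163 and Mertk, had log2 fold changes of 0.29 and 0.06 and their highest values of the 6 mice in control mouse 2, 23.9 and 59.4 CPM. Progenitor and fibroblast markers summed to 2814, 2097 and 2873 CPM in control mice 1, 2 and 3 and 1213 to 1721 CPM in the aPU.1KO mice, and 8 of 10 had a lower level with an unadjusted p below 0.05 and 1, Pdgfrb, at an adjusted p (0.0491 by edgeR), where DESeq2 called 7. Endothelial markers summed to 788, 900.0 and 630 CPM in control mice 1, 2 and 3 and to 383 to 810.0 CPM in the aPU.1KO mice, with 2 of 10 lower at an unadjusted p under 0.05. Dendritic cell and neutrophil markers summed to 122, 50.8 and 125 CPM and to 29.5 to 45.2 CPM. Of 5 tested, 3 were lower at an unadjusted p under 0.05 (Itgax, S100a8 and Csf3r), and DESeq2 called 2 at an adjusted p. Itgax alone was at 77.7, 13.9 and 70.4 CPM in control mice 1, 2 and 3. Clec9a had a log2 fold change of -1.29 and did not pass. Zbtb46 had -0.06, and its highest value of the 6 mice, 17.4 CPM, was in control mouse 2. Of this list Retnlg was at 0 in all mice and Ly6g had at most 1 count. Lymphocyte markers summed to 9.71, 6.17 and 11.4 CPM and to 3.86 to 5.64 CPM over 16 genes, of which 6 were tested and 1, Cd8a, was lower at an unadjusted p under 0.05. Mesothelial markers summed to 9.67, 16.8 and 4.64 CPM in control mice 1, 2 and 3 and to 6.58 to 8.54 CPM in the aPU.1KO mice, with 0 of 6 at an unadjusted p under 0.05 by edgeR. Both sums were highest in control mouse 2 and lowest in control mouse 3 among the controls, the reverse of 9 of the 10 class I genes. The part of these cells in the class I values was not tested. Adipocyte markers were abundant in every library, at 26012 to 28609 CPM in the controls and 31020 to 34205 CPM in the aPU.1KO mice, and 8 of 10 were higher and 1, Lep, lower at an unadjusted p under 0.05, while edgeR called 0 and DESeq2 called 8 higher at an adjusted p below 0.05.

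Levels between genes were compared as control CPM per kilobase of the principal transcript. B2m was highest at 2467, followed by H2-K1 at 696 and H2-D1 at 684, whose ranges over the controls overlapped. Tapbp at 92.4 and H2-T23 at 46.3 came next, then Psmb8 at 22.9, Tap2 at 21.5, Psmb9 at 12.0 and Tap1 at 11.9, and Nlrc5 was lowest at 4.53. Beside H2-K1 and H2-D1, the ranges of H2-T23 and Psmb8, of Psmb8 and Tap2, and of Psmb9 and Tap1 overlapped, so that their order is not beyond the spread between mice. The other neighbours in the order had separate ranges.

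Rnh1, Pqlc1, Alg14 and Bax were among the 5 genes whose values over the 6 mice came closest to the mean profile of the 10. The root mean square difference over the 6 libraries, on the log2 scale, was 0.065 to 0.077 for these 4 genes. Among the 10 themselves it ran from 0.052 for H2-D1 to 0.24 for Nlrc5.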

How the data were processed

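RNA of the adipocyte fraction was sequenced in 6 libraries. The deposited values are estimated counts, which the authors made with Salmon (option validateMappings) and summed from transcripts to genes. The values are whole numbers and entered the tests as they are. Per the labels' processing notes the build was GRCm38 and FastQC was used, while the Salmon version and annotation are not given in the sources used here. Of 35122 genes, 35031 were matched to a symbol (GENCODE M21), and the unmatched hold 0.0367% of counts. Groups came from the genotype labels, and mice are numbered in accession order. No pair of libraries in a group was a duplicate (chi-square per degree of freedom 19.0 or more).

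Genes kept by filterByExpr (13925) were scaled by TMM and compared with edgeR 4.0.16 (glmQLFit with its defaults, glmQLFTest, Benjamini-Hochberg over all genes) in R 4.3.3. Standard errors come from the coefficient and the F statistic, and intervals from the t distribution of the same fit. Alternatives were RLE and upper quartile factors, at least 10 counts in every library, no filter, DESeq2 1.42.0, limma-voom (limma 3.58.1), robust dispersion, legacy = FALSE and leaving out each mouse. The study compared the groups with DESeq2. The pipeline was tested on simulated data. Ratios were compared with exact permutation tests (scipy 1.17.1). Transcript identity came from BLAST 2.17.0, and figures from matplotlib 3.10.9. A principal transcript is the longest coding one of the best APPRIS rank. The least counted of the 10 genes, Psmb9, had 256 to 1248 counts per library, and 3 mice per group limit every test.

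The 10 genes and the 14 lists were chosen with earlier results of these data known. Named are the 10 genes, tested genes of the class I, loading and interferon-induced proteasome lists, Psmb5 to Psmb7, Spi1, up to 4 genes with the lowest p of each other list, and the 5 genes closest in profile with an average log2 CPM of at least 1. Of these, 1 gene is not reported here. Ifng, Retnlg, Ly6g, Cd8a, Lep, Cd163, Mertk and Zbtb46 were named after their values were seen.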

Additional observations from a re-analysis of the deposited data

How the results depend on the processing

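Over 14 alternatives for each of the 10 genes, 128 of 140 log2 fold changes kept their direction and their side of an adjusted p of 0.05. H2-T23 passed it with DESeq2 and without control mouse 2, and Psmb8 without control mouse 2. The number of genes with an adjusted p below 0.05 and a lower level was 0 by edgeR (0.18% of all genes) and 1 with DESeq2 (8.73%). It ran from 0 to 2 with a mouse left out, and was 2 without control mouse 2, where 6.93% of all genes were lower. The count lower at an unadjusted p under 0.05, 1 by edgeR, was 3 with no filter (11.9% of all genes) and 3 with DESeq2 (14.9%), and 0 to 8 with a mouse left out, highest without control mouse 2 (15.1% of all genes were lower there) and 0 without control mouse 1 or 3 or aPU.1KO mouse 3. With a mouse left out the count lower with no overlap ran from 0 to 9 and that higher from 0 to 1. The first was highest without control mouse 2, where 24.1% of all genes were lower and 24.8% higher. The 1 higher came without aPU.1KO mouse 3, and the share of all genes there is not given here. Nlrc5 changed sign with RLE factors (-0.012), at least 10 counts in every library (-0.021), no filter (-0.017), DESeq2 (-0.013) and limma-voom (-0.0050), and ran from -0.076 to 0.085 with a mouse left out. Tap1 ran from -0.42 to 0.0065, above 0 only without control mouse 3. The cause was not tested. The summed heavy chains ran from -0.66 to -0.15 with a mouse left out and passed the threshold in no alternative run. The ratios kept their direction, and their permutation p cannot pass 0.05 at these group sizes. No paired analysis was possible because the labels give each mouse a number of its own and none is shared between the groups. The median log2 fold change of all genes stayed between -0.022 and 0.015 over the fits.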

Other observations

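Some genes near the class I pathway had their highest value in aPU.1KO mouse 2, where Irf1 was also highest, and are given as values only, chosen after the data were seen. Socs1, an inhibitor of interferon signaling, was at 2.13, 2.10 and 1.90 CPM in control mice 1, 2 and 3 and at 4.01, 5.29 and 1.28 CPM in aPU.1KO mice 1, 2 and 3, with a log2 fold change of 0.78 ± 0.47 (SE; adjusted p = 0.339 by edgeR). Rela, a subunit of NF-kB, was at 58.0, 55.9 and 63.6 CPM and at 71.5, 93.9 and 57.1 CPM, with 0.33 ± 0.18 (SE; adjusted p = 0.287 by edgeR). In both genes the aPU.1KO mice lay on both sides of at least 1 control.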
